A study of Mus musculus with 6 samples.

Results

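The genes described here are 9 transcripts known in mouse tissues for their response to glucocorticoids: Zbtb16, Fkbp5, Tsc22d3, Sgk1, Mt1, Mt2, Hif3a, Pdk4 and Cdkn1a. They were found as the array probes whose RefSeq accession belongs to one of these symbols, and all 9 were measured, of 19752 genes that could be named on the arrays. The probe used for each was well above background on all 6 arrays, so no member had to be left out or given as a bound.

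Whole mouse lung was homogenised, and its total RNA was read in the single colour Cy3 on 6 Agilent arrays, 1 for each of 6 groups. All mice were C57BL/6, and the groups were wild type (WT), FcRg KO (FcRg-/-) and FceRIa KO (FceRIa-/-) mice, which received either PBS or histamine-releasing factor of the mouse (HRF, with a His tag by the sample descriptions) by the intranasal route. FcRg is the signalling chain shared by several Fc receptors, FceRIa is the IgE-binding chain of the high-affinity IgE receptor, and HRF is a secreted protein that can bind IgE. The labels give no age, dose or time after the challenge, do not name the deletions beyond these genotypes, and leave unsaid whether the RNA on an array came from 1 mouse or from a pool. The targeted genes did not bear the labels out: for PBS and HRF, Fcer1g had levels of 3.93 and 4.61 in WT against 4.14 and 4.32 under the FcRg label, and Fcer1a -4.48 and -4.19 in WT against -0.90 and -1.16 under the FceRIa label. Whether the probes lie in the deleted parts is not known here, so the arrays are called throughout by their label (FcRg label, FceRIa label), and every direction between genotypes is one between labels.

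Levels are log2 signals relative to the array's own 75th percentile, so that 0 is the 75th percentile of all spots and 1 unit is a factor of 2. A probe's level cannot be set against another probe's, and only differences between arrays of the same gene are read. Each array held 59305 spots other than controls, of which 67.5% to 79.6% were well above background, and no spot was saturated. With 1 array in each group, a ratio between 2 arrays has no replicate check, and no neighbouring levels in any order of arrays can be told apart beyond a replicate spread. The 14 markers of lung cells that were listed were well above background on every array, with a mean level between 5.36 and 5.63. In whole lung, fewer cells of a type and less RNA per cell cannot be told apart.

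Glucocorticoids (corticosterone in mice) enter cells and bind the glucocorticoid receptor, encoded by Nr3c1, which then moves to the nucleus and binds DNA at palindromes called glucocorticoid response elements. The hormone follows a daily rhythm and is released in stress and inflammation, so its target genes are often read as a record of recent exposure. Several of these genes also answer to other signals: the metallothioneins to zinc and inflammatory cytokines, Pdk4 to fatty acids and fasting, Cdkn1a to p53, and a number of them to the circadian clock.

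Promoter sequences are shown for 4 members, picked for the motifs marked below, and windows that are not shown held matches too. RefSeq (GRCm38.p6) windows of 300 bases, from 250 before to 50 after a start site, were at hand for 8 of the 9 members, 16 windows in all. Capitals mark matches of the metal response element core in Mt2 and Mt1 (TGCACNC or TGCGCNC, either strand), of the full glucocorticoid response element in Sgk1 (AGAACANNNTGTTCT) and of the E-box in Fkbp5 (CACGTG), to which clock factors and others bind. The windows lie at chr8:94172368-94172667 (plus strand, Mt2), chr8:94178839-94179138 (plus strand, Mt1), chr10:21993640-21993939 (plus strand, Sgk1, the only one of its 6 windows with the full element) and chr17:28486100-28486399 (minus strand, Fkbp5).
Mt2 promoter: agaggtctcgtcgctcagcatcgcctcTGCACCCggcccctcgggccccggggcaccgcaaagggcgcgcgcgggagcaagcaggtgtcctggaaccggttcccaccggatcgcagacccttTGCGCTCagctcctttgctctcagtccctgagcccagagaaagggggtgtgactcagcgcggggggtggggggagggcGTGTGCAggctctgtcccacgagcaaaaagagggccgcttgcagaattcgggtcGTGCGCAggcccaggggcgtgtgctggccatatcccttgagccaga
Mt1 promoter: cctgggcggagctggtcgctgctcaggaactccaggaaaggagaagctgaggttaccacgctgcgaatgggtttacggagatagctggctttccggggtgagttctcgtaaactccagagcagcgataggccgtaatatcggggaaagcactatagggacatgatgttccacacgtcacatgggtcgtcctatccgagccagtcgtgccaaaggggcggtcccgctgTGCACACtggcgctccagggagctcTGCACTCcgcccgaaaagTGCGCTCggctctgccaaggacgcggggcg
Sgk1 promoter: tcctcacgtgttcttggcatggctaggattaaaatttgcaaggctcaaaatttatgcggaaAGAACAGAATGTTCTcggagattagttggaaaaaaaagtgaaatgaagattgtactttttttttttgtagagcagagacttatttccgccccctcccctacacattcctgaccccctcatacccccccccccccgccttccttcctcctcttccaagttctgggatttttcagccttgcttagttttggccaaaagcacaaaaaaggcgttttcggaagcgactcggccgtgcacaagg
Fkbp5 promoter: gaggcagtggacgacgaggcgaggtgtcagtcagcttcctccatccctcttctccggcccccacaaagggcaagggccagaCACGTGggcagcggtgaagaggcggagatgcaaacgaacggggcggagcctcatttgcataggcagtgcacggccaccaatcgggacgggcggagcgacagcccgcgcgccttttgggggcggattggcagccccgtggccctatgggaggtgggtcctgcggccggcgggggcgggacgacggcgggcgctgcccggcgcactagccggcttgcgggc
The Mt2 window held 4 metal response element matches and the Mt1 window 3. Among windows not shown, that of Hif3a held such a match at -174 to -168, and another Sgk1 window one at 12 to 18. A Tsc22d3 window held the single arm TGTTCT of the glucocorticoid response element at -185 to -180. Of 32851 windows of the same length over all genes, 0.517% held at least 4 such matches, 1.97% at least 3 and 25.7% at least 1. The full glucocorticoid response element was found in 3 windows of all genes (0.00913%), and its single arm TGTTCT, which the full element contains, in 19% of them. The E-box was found in 7.15% of windows, and the Sgk1 window holds one too, upstream of its glucocorticoid response element. These matches are descriptions of the letters in the windows, and no binding was measured.

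**Figure D1:**
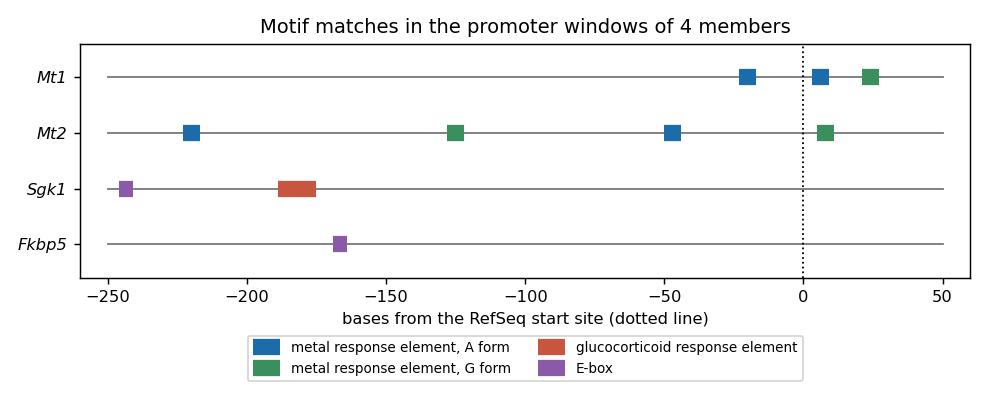
Positions of motif matches in the promoter windows of Mt1, Mt2, Sgk1 and Fkbp5, with the distance from the RefSeq start site in bases on the x axis and 1 line per gene. Coloured blocks are matches drawn to their length. The 4 matches of the metal response element in Mt2 are spread over the window, the 3 in Mt1 lie within 27 bases of the start site, and the glucocorticoid response element of Sgk1 lies at -189 to -175.

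The receptor and the enzymes that set its ligand were measured first, to see whether the means of responding differed between arrays. Nr3c1 stood between 4.29 and 4.58 on the 6 arrays. Hsd11b1, which regenerates active hormone inside cells, stood between 4.63 and 5.02. Nr3c2, the mineralocorticoid receptor that binds the same hormone, was low, between -4.37 and -3.51, and Hsd11b2, which inactivates the hormone, was well above background on 3 of the arrays. Of the 23 genes of receptor, chaperones, coregulators and ligand enzymes, none reached a 2-fold ratio of HRF to PBS in WT (22 compared, median 0.09) or on the arrays labelled FcRg KO (20 compared, median -0.07), and 1 of 22 did on those labelled FceRIa KO (Hsd11b2, 1.06, median of the list -0.06).

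The members did not share a direction after HRF. After HRF in WT, 2 of the 9 stood at least 2-fold higher (Mt2 and Mt1), against 2.32% of the 17432 genes compared, and 2 stood at least 2-fold lower (Zbtb16 and Hif3a), against 1.52%. On the arrays labelled FcRg KO, no member was at least 2-fold higher after HRF (0.765% of 16593 genes were), and 1, Pdk4, was at least 2-fold lower (1.18%). On the arrays labelled FceRIa KO, 1 was higher (Mt2, against 1.48% of 16315 genes) and 1 lower (Hif3a, against 0.447%). The median log2 ratio of the members was -0.33 in WT, -0.07 for the FcRg label and 0.11 for the FceRIa label, beside -0.05, 0.00 and -0.01 over all genes compared.

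**Figure D2:**
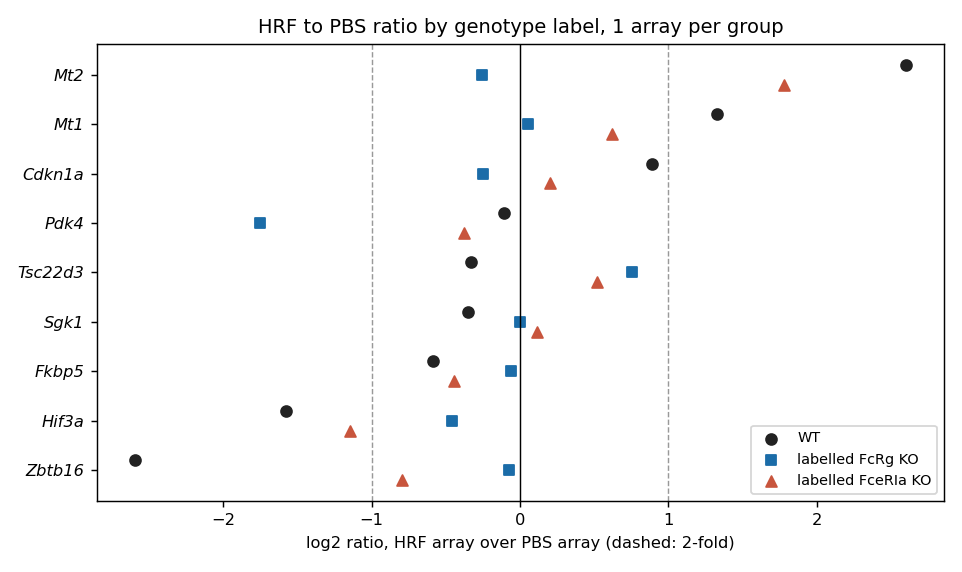
Log2 ratio of the HRF array to the PBS array for each member (y axis, ordered by the WT ratio), with 1 symbol per genotype label and dashed lines at 2-fold. The metallothioneins lie to the right in WT and under the FceRIa label and near 0 under the FcRg label, Zbtb16 and Hif3a lie to the left, and Pdk4 lies beyond the dashed line under the FcRg label only among the 3 labels.

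No member passed a test over the arrays. In limma, with genotype label and challenge as additive terms and Benjamini-Hochberg adjustment over all genes, 0% of 17603 genes had an adjusted p under 0.05 for the average HRF effect, and 1552 genes, Hif3a among them, had an unadjusted p under 0.05. The adjusted p of the members lay between 0.557 and 0.819. For the arrays labelled FcRg KO against WT, 0.148% of genes passed (1 higher and 25 lower) and no member did, with adjusted p from 0.332 to 0.981. At an unadjusted p under 0.05 there were 2363 genes (13.4%), with 3 members among them, Zbtb16, Fkbp5 and Hif3a. For the arrays labelled FceRIa KO against WT, 0% passed (2262 genes at an unadjusted p under 0.05, no member among them). In the limma fit of the WT response minus that of both labelled knockouts, 0% of 17602 genes passed (1526 at an unadjusted p under 0.05, with Zbtb16 and Tsc22d3 among them). The residual of these fits is the disagreement between genotype labels, not the spread between mice. What follows therefore gives levels, and the words higher and lower refer to these 6 arrays.

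**Figure D3:**
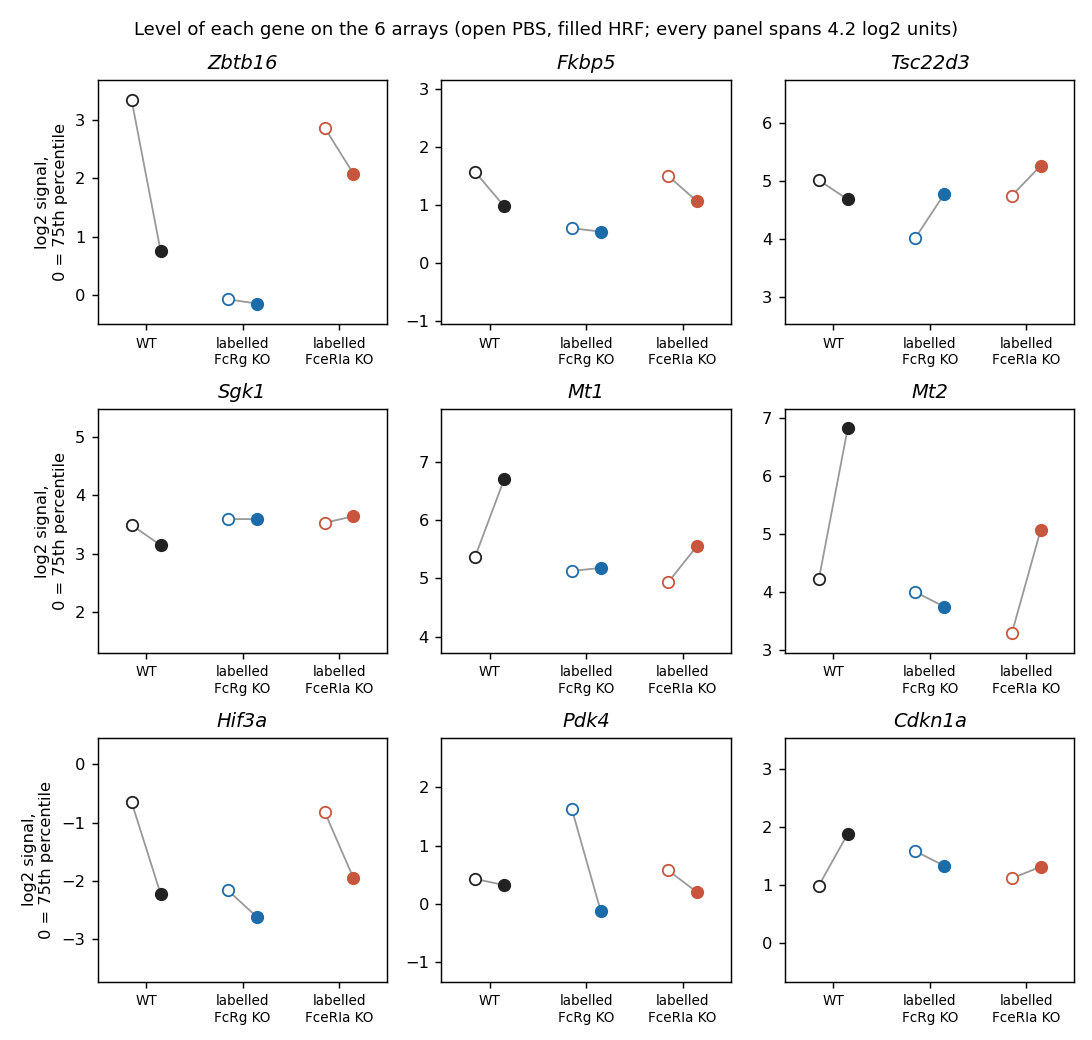
Levels of the 9 members, 1 panel each, as log2 signal relative to the array's 75th percentile, for PBS (open) and HRF (filled) under each genotype label, with a line joining the arrays of a label. All panels span the same 4.2 log2 units at different heights, so that slopes can be compared across genes and heights cannot. Zbtb16 and Mt2 cover the widest ranges, 3.50 and 3.54 log2 units, and Sgk1 the narrowest, 0.50.

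Zbtb16, Fkbp5 and Hif3a had the same or nearly the same order of the 6 arrays, over unlike ranges of 3.50, 1.02 and 1.98 log2 units. Zbtb16 encodes a zinc finger transcription repressor (PLZF) that is among the strongest glucocorticoid-induced genes in many cell types and is also a lineage factor of innate-like T cells. Its level in WT was 3.35 with PBS and 0.76 with HRF, under the FcRg label -0.08 and -0.15, and under the FceRIa label 2.88 and 2.08. It was thus high on both PBS arrays other than that labelled FcRg KO, and low on both arrays of that label with or without HRF. The ratio of HRF to PBS was -2.59 in WT (6.02-fold lower), -0.80 for the FceRIa label and -0.07 for the FcRg label. The limma estimate of the WT response minus that of the labelled knockouts was -2.16 (SE 0.42, 95% interval -3.66 to -0.65, adjusted p 0.569).

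The difference between PBS arrays was larger still for this gene. Zbtb16 was 10.8-fold lower on the PBS array labelled FcRg KO than on that of WT, a log2 ratio of -3.43, and the ratio of the PBS array labelled FceRIa KO to that of WT was -0.47. Over both arrays of the FcRg label against WT, limma gave -2.17 (SE 0.69, 95% interval -4.15 to -0.18, adjusted p 0.365). Between PBS arrays of the FcRg label and WT, 1 member was at least 2-fold higher (Pdk4, against 0.679% of 17373 genes) and 2 at least 2-fold lower (Zbtb16 and Hif3a, against 3.04%). Between PBS arrays of the FceRIa label and WT no member was (0.512% of 17381 genes higher, 2.88% lower). Both comparisons share the WT PBS array.

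Fkbp5 encodes an HSP90 co-chaperone that lowers the receptor's affinity for hormone and is induced by it, a short negative feedback loop. Its levels were 1.57 (PBS) and 0.98 (HRF) in WT, 0.60 and 0.55 under the FcRg label, and 1.50 and 1.06 under the FceRIa label. The order of the 6 arrays was that of Zbtb16 without exception, over a range of 1.02 log2 units. The log2 ratios of HRF to PBS were -0.59, -0.06 and -0.44, and the PBS array labelled FcRg KO stood at -0.96 relative to that of WT. Over both arrays of that label limma gave -0.70 (SE 0.16, adjusted p 0.332). Among the 15 listed genes of the FK506-binding family none reached a 2-fold ratio of HRF to PBS in WT, and Fkbp4, the co-chaperone with the opposite effect on the receptor, stood between 0.56 and 0.999.

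Hif3a encodes an alpha subunit of the hypoxia-inducible factors whose shorter forms oppose the other alpha subunits. It stood at -0.65 (PBS) and -2.23 (HRF) in WT, -2.17 and -2.63 under the FcRg label, and -0.81 and -1.96 under the FceRIa label. The PBS arrays of WT and of the FceRIa label were the high ones, and the other 4 lay between -2.63 and -1.96. The ratio of HRF to PBS was below 0 under all 3 labels, -1.57, -0.46 and -1.14, and the limma average was -1.06 (SE 0.25, 95% interval -1.78 to -0.33, adjusted p 0.557). Hif3a has 2 further, dim probes, at levels under -5: one, well above background on 5 arrays, gave a WT ratio of 0.09, and the other was well above background on 2 arrays and not on the WT HRF array, so it has no measured ratio there. A mean over the 3 probes, which takes in these values near background, was -0.93 in WT and -0.46 under the FceRIa label. The hypoxia genes did not follow it: of 18 listed, 2 stood at least 2-fold higher after HRF in WT and none lower, with Egln3, a HIF-induced hydroxylase, at 1.92, and the median was 0.08.

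Few other genes had the array order of Zbtb16. Of 15678 genes well above background on all arrays, 42 (0.268%) had the same order, and so did 6 of the 1520 that ranged over more than 1 log2 unit (0.395%): Akr1c18, Fkbp5, Per2, Rsad1, Sox11 and Zbtb16. Both counts include Zbtb16 itself, whose levels set the order. They were chosen after the levels were seen and are a description, not a test. Hif3a had 1 of the 15 pairs of arrays out of that order, Tsc22d3 5, Pdk4 6, Mt2 7, Mt1 8, Sgk1 10 and Cdkn1a 12. By root mean square difference of centred levels over the 6 arrays, the closest profiles to Zbtb16 were those of Sox11 (0.71), Rec8 (0.74) and Hif3a (0.75). The closest to Hif3a were those of Krt75 (0.32), Mettl21e (0.35) and Gpr143 (0.37), and to Fkbp5 those of Sapcd1 (0.10), Coro6 (0.13) and Mycbpap (0.14). Of these profiles closest to Hif3a and Fkbp5, all but that of Mycbpap were dim. The highest level among these dim genes was -3.49 (Sapcd1, PBS array labelled FceRIa KO). The part of array background in their profiles was not tested. Between members, the same measure was 0.999 for Zbtb16 and Fkbp5, 0.75 for Zbtb16 and Hif3a, and 0.39 for Fkbp5 and Hif3a. It was 0.38 for Fkbp5 and Tsc22d3, so by this measure Fkbp5 was no closer to Zbtb16 or Hif3a than to Tsc22d3. The measure takes in the size of the changes, and the order does not.

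Some clock genes ran beside these 3 members and others did not, and their part in the result was not tested. Per2, a clock repressor that is also a glucocorticoid target, named here after its values were seen, stood at -0.38 (PBS) and -0.98 (HRF) in WT, -1.68 and -1.75 under the FcRg label, and -0.44 and -0.79 under the FceRIa label. Per3 stood at -1.77 and -2.87, at -3.29 and -3.18, and at -2.54 and -2.78 on the same arrays. Per1, which is also a glucocorticoid target, had ratios of HRF to PBS above 0 under all 3 labels, 0.43 in WT, 0.60 for the FcRg label and 0.62 for the FceRIa label, with 8 of 15 pairs of arrays out of the order of Zbtb16. Arntl, which encodes the activator BMAL1 and peaks opposite to the period genes, was lowest on the WT PBS array, -1.62, and highest on the PBS array labelled FcRg KO, 0.16. Of the 19 clock genes measured, 1 stood at least 2-fold higher after HRF in WT (Nfil3, 2.01) and 1 lower (Per3, -1.11), with a median of -0.46. The median was -0.07 for the FcRg label and 0.06 for the FceRIa label, where 12 of 19 were above 0, and 1 of the clock genes, Per2, had the array order of Zbtb16. Of the 15 pairs of arrays, Per3 and Hlf had 1 out of that order, Nr1d1 and Dbp 2, Tef 3 and Arntl 11. Other clock genes were not scored in this way, and these counts are a description, not a test. Between the PBS arrays of the FcRg label and WT the median was -0.39, with 1 at least 2-fold higher and 2 lower. Zbtb16 is also expressed in innate-like T cells. Of 17 markers of T and innate-like lymphocytes, 15 had ratios of HRF to PBS above 0 in WT (median 0.33), 12 stood higher on the PBS array of the FcRg label than on that of WT (median 0.51), and 11 stood lower on that of the FceRIa label (median -0.08). Their part in the Zbtb16 levels was not tested.

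**Figure D4:**
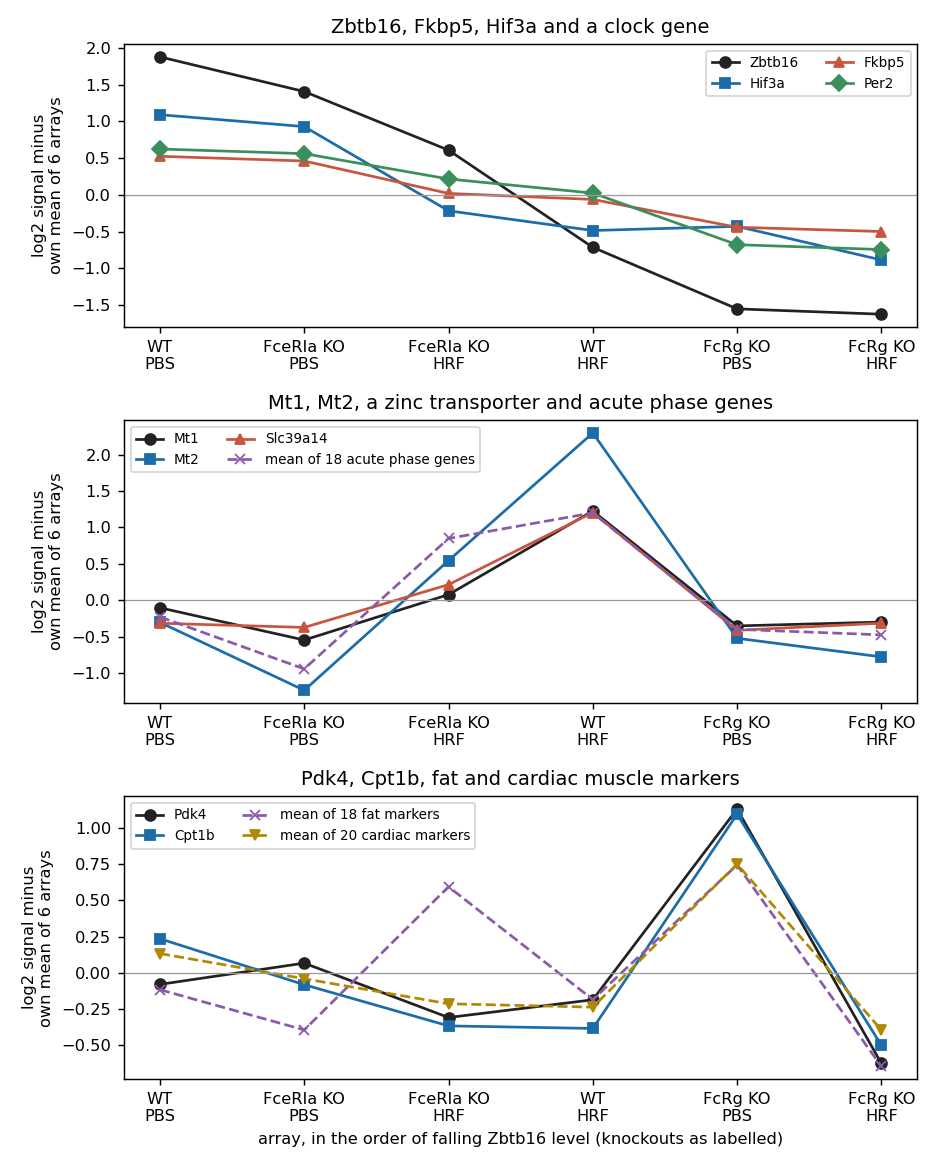
Log2 signal minus the gene's own mean over the 6 arrays (y axis), with the arrays on the x axis in the order of falling Zbtb16 level and knockouts as labelled. Zbtb16, Hif3a, Fkbp5 and Per2 descend along the axis with 1 pair of arrays out of order (Hif3a), Mt1 and Mt2 peak on the WT HRF array beside Slc39a14 and the mean of 18 acute phase genes, and Pdk4 peaks on the PBS array labelled FcRg KO beside Cpt1b and the means of fat and cardiac muscle markers.

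The metallothioneins Mt1 and Mt2, small cysteine-rich proteins that bind zinc and copper, stood higher after HRF in WT and under the FceRIa label. Mt2 stood in WT at 4.22 with PBS and 6.83 with HRF, under the FcRg label at 4.01 and 3.75, and under the FceRIa label at 3.29 and 5.07. The HRF arrays of WT and of the FceRIa label were the highest, and the HRF array labelled FcRg KO was below its own PBS array. The log2 ratios were 2.60 (6.07-fold higher), -0.26 and 1.78 (3.44-fold higher), and the limma average was 1.38 (SE 0.63, 95% interval -0.46 to 3.21, adjusted p 0.561). Mt1 stood at 5.38 and 6.71, 5.13 and 5.18, and 4.93 and 5.56 on the same arrays. Its log2 ratios were smaller than those of Mt2 under both of these labels, 1.33 in WT and 0.62 for the FceRIa label, and 0.05 for the FcRg label. The Mt1 and Mt2 transcripts are similar in sequence, and whether either probe also binds the other transcript was not tested.

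The metal response list holds both genes, so its counts and medians are in part their own. In WT 3 of 15 genes compared stood at least 2-fold higher after HRF and none lower, with a median of 0.57. The third was Slc39a14, a zinc importer (ZIP14) induced in the acute phase response, with levels of -0.32 and 1.20 in WT, -0.42 and -0.32 under the FcRg label and -0.38 and 0.21 under the FceRIa label. Gclc, which encodes a subunit of the first enzyme of glutathione synthesis, had a ratio of 0.92 in WT. Its levels were 4.16 (PBS) and 5.08 (HRF) in WT and 3.52 and 3.91 under the FceRIa label. The HRF array of that label was thus below the WT PBS array for this gene. Slc30a1, a zinc exporter and a standard target of the metal-sensing factor, had levels of 1.66 and 1.48 on the WT arrays, and the family members Mt3 and Mt4 had ranges of -0.84 to -0.57 and -5.33 to -4.63 on the 6 arrays. After Mt1, Mt2, Slc39a14 and Gclc, the highest WT ratios were those of Gsr (0.86), Txnrd1 (0.69), Srxn1 (0.63) and Hmox1 (0.57). The other genes compared, Mtf1, Slc30a1, Slc39a8, Slc39a10, Mt3, Mt4 and Gclm, lay between -0.18 (Slc30a1) and 0.39 (Mt4) in WT. The WT median was thus not carried by most of the metal carriers and metallothioneins listed. The median of the list was -0.01 for the FcRg label and 0.26 for the FceRIa label, where 1 of 15 genes, Mt2 itself, stood at least 2-fold higher.

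Acute phase genes were high on the same HRF arrays, and their part in the metallothionein levels was not tested. The mean level of the 18 well above background on every array was 0.78 (PBS) and 2.21 (HRF) in WT, 0.61 and 0.53 under the FcRg label, and 0.06 and 1.85 under the FceRIa label. Of 19 compared, 12 stood at least 2-fold higher after HRF in WT (median 1.28) and 11 for the FceRIa label (1 lower, median 1.04), and 1 of 18 for the FcRg label (2 lower, median -0.06). Saa3, a serum amyloid A made locally in lung, had ratios of 3.57, 1.06 and 4.52. The closest profiles to Mt2 were those of Tnfaip6 (0.19), Ptx3 (0.25) and Rgs16 (0.27), and to Mt1 those of Hpx (0.09), Ptafr (0.09) and Sting1 (0.10). Ptx3 encodes a soluble pattern recognition protein and Hpx the heme carrier hemopexin.

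Pdk4, a kinase that shuts pyruvate out of the mitochondrial oxidation of glucose, had its one high value on the PBS array labelled FcRg KO. Its levels were 0.43 (PBS) and 0.32 (HRF) in WT, 1.63 and -0.12 under the FcRg label, and 0.57 and 0.20 under the FceRIa label. Apart from that array, the levels lay between -0.12 and 0.57. The ratio of HRF to PBS was therefore -1.75 (3.37-fold lower) for the FcRg label, -0.11 in WT and -0.37 for the FceRIa label, and the PBS array labelled FcRg KO stood 2.31-fold above that of WT. Of its paralogs, Pdk1 and Pdk2 were likewise highest on that array, at -0.27 and 1.48, and Pdk3 stood between 0.36 and 0.47 on the 6 arrays.

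Markers of fat and cardiac muscle were high on the same array, and their part in the Pdk4 value was not tested. The mean level of 20 cardiac markers, all well above background on every array, was 2.86 on the PBS array of the FcRg label and between 1.72 and 2.24 on the others. All 20 stood higher there than on the WT PBS array, with a median of 0.53, and 10 of 20 were at least 2-fold lower on the HRF array of that label (median -1.01). The mean level of the 18 fat markers well above background on every array (of 20) was 3.36 there, 3.21 on the HRF array labelled FceRIa KO and between 1.97 and 2.50 on the other 4. Ucp1, the uncoupling protein of brown fat, stood at 3.83 there and between -2.61 and 0.82 elsewhere. The closest profiles to Pdk4 were those of Cpt1b (0.17), the muscle and brown fat carnitine transferase, Cox8b (0.18), a heart and muscle subunit of cytochrome oxidase, and Flnc (0.18), the muscle filamin.

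Other genes of fatty acid oxidation and fasting gave small ratios. Of 25 listed, 2 were at least 2-fold lower after HRF under the FcRg label (Cpt1b, -1.59, and Trim63, a muscle ubiquitin ligase, -1.08), with a median of -0.21. The median was -0.32 in WT, and none under the FceRIa label reached 2-fold (median -0.01).

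Tsc22d3, Sgk1 and Cdkn1a had no ratio of HRF to PBS that reached 2-fold. Tsc22d3 encodes GILZ, a leucine zipper protein that carries part of the anti-inflammatory action of glucocorticoids. It stood at 5.02 (PBS) and 4.69 (HRF) in WT, 4.02 and 4.78 under the FcRg label, and 4.75 and 5.27 under the FceRIa label. The PBS array labelled FcRg KO was the lowest, at -0.99 relative to WT PBS. Zbtb16 and Fkbp5 were also lower there than on WT PBS, but were lowest on the HRF array of that label. For Tsc22d3 the HRF arrays of both labelled knockouts were above their PBS arrays. The log2 ratios were -0.33 in WT, 0.75 for the FcRg label and 0.52 for the FceRIa label, and limma gave -0.97 for the WT response minus that of the labelled knockouts (SE 0.18, 95% interval -1.62 to -0.31, adjusted p 0.569). Tsc22d1, its paralog, had levels of 3.89 and 3.54 in WT and between 3.82 and 3.97 on the other 4 arrays. The closest profiles to Tsc22d3 were those of Rhox2c (0.13), Majin (0.14) and Nyx (0.15), all dim, with a highest level of -3.69 (Nyx, WT PBS array).

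Sgk1, a kinase induced by gluco- and mineralocorticoids that keeps the epithelial sodium channel at the cell surface, was the steadiest member. Its levels were 3.49 (PBS) and 3.14 (HRF) in WT, 3.59 on both arrays of the FcRg label, and 3.53 and 3.64 under the FceRIa label. The WT HRF array was the lowest and the other 5 lay between 3.49 and 3.64. Of the 6 promoter windows of Sgk1, 1 carries the full glucocorticoid response element printed above. Whether the transcript read by the probe starts there was not tested. The channel subunits had ratios of HRF to PBS in WT of -0.18 for Scnn1a, -0.33 for Scnn1b and -0.84 for Scnn1g, and none of the 13 genes of this list reached 2-fold under any label, with medians of -0.11, -0.04 and 0.03.

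Cdkn1a encodes the cell cycle inhibitor p21, which glucocorticoids and p53 both induce. It stood at 0.996 (PBS) and 1.89 (HRF) in WT, 1.59 and 1.34 under the FcRg label, and 1.12 and 1.32 under the FceRIa label. The WT HRF array was the highest and the WT PBS array the lowest. The log2 ratios were 0.89, -0.25 and 0.20, and a second, dimmer probe gave 0.66 in WT. None of the p53 targets compared (18 in WT, 17 under each other label) reached 2-fold, with medians of 0.06, 0.01 and 0.13. Of 8 listed inhibitors of cyclin-dependent kinases, 1 stood at least 2-fold higher after HRF in WT, Cdkn2a, at 1.32.

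A wider list of 43 other glucocorticoid targets was set beside the members. In WT 3 of 42 compared stood at least 2-fold higher after HRF and 1 lower, with a median of -0.17. The numbers were 0 and 2 for the FcRg label (median -0.05) and 3 and 0 for the FceRIa label (median 0.14). Between PBS arrays, 1 of 42 was at least 2-fold higher for the FcRg label against WT and none lower, with a median of 0.02, so the list as a whole did not share the low levels of Zbtb16, Fkbp5 and Hif3a there. None of the list had the array order of Zbtb16, and none passed limma in the average HRF effect or in either label against WT.

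Among targets well above background on all 6 arrays, the 4 with the largest ratios each also belong to another process or list. Lcn2, the iron-binding lipocalin of the acute phase list, had ratios of 1.68 in WT, 0.22 for the FcRg label and 2.46 for the FceRIa label, and Cebpd, a transcription factor of the acute phase response, had 1.79, 0.70 and 1.49. Il1r2, a decoy receptor for interleukin 1 that is also in the neutrophil list, had 2.41, -0.03 and -0.26, and the 13 neutrophil markers had a median of 0.77 in WT, 0.14 for the FcRg label and 0.09 for the FceRIa label. Pck1, an enzyme of gluconeogenesis that is also in the fat list, had -1.44, -1.85 and 0.26. Cd163, a macrophage scavenger receptor named here after its values were seen, stood at -2.68 on the PBS array of the FcRg label and was not well above background on its HRF array, and with Pck1 makes up the 2 lower genes of that label. The part of these cells and tissues in the ratios was not tested.

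**Figure D5:**
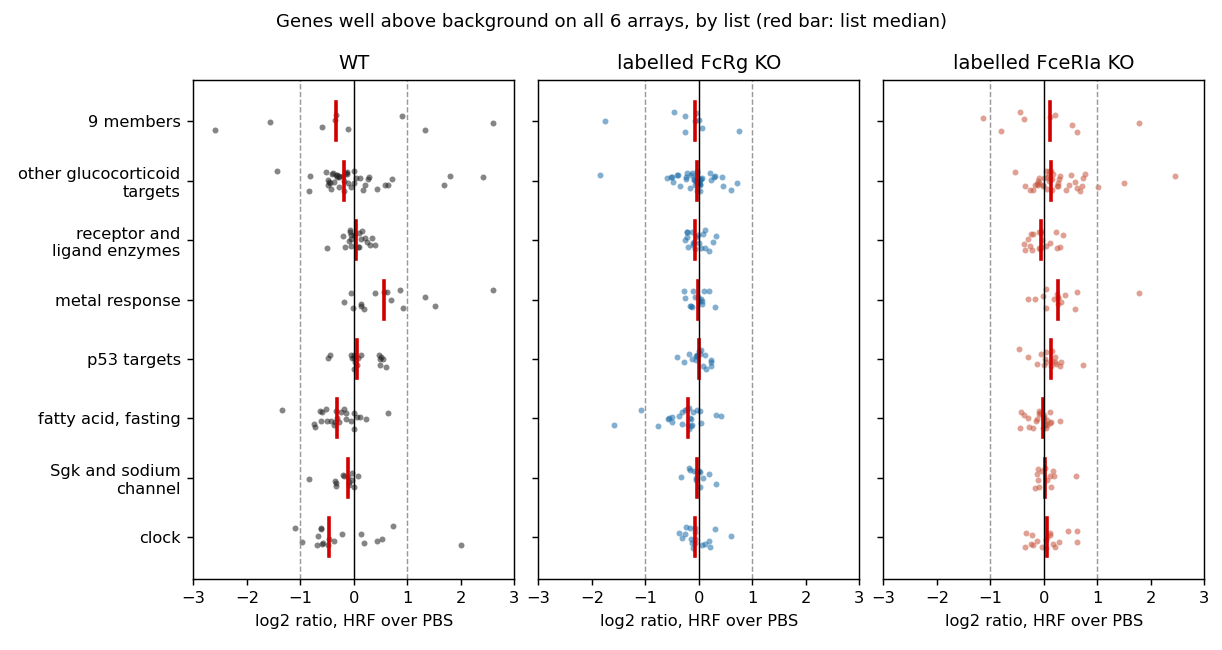
Log2 ratio of HRF to PBS for each gene well above background on all 6 arrays, by list (y axis) and genotype label (panels), with the list median over these genes as a red bar and dashed lines at 2-fold. Points are jittered vertically. The 9 members are spread more widely than the genes of receptor and ligand enzymes, which lie within 2-fold under every label, and the metal response list lies mostly to the right in WT.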

How the data were processed

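Gene expression was measured in whole mouse lung on 6 Agilent 1-colour arrays, 1 for each of 6 groups. Per the file headers, scanner images were read by Feature Extraction 10.7.3.1, and the deposited processed signal is a background-subtracted intensity, not scaled between arrays, from a design on mm9. The value table deposited with the series is in log2, and its centring and scale are not stated. Differences between its columns tracked those of the scanner files with r of 0.998, 0.997 and 0.997 over probes (WT, FcRg and FceRIa labels) and slopes of 1.00, 1.00 and 0.999, so its direction is theirs. The medians of its columns were 0.10 (WT PBS) and 0 (all others), and the value on which each probe was centred is unknown.

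The value used was log2 of the processed signal minus that of the array's 75th percentile (1197 to 1622). Control and outlier spots were left out and spots of 1 probe averaged. Of 55681 probes, 26056 were named through their RefSeq accession (gene table of GRCm38.p6), giving 19752 genes, and 29625 are unnamed here. Of the probes of a gene, that with the highest mean was used. Comparisons needed a probe well above background on 1 or more of the arrays involved, with the dim side at its bound. Tests used limma 3.58.1 (R 4.3.3) (2 residual degrees of freedom in the additive fit). The fit was also run on simulated data with independent noise and the same HRF shift under every label. Such data lack the disagreement between labels that makes up the residual here, so the run cannot check the p-values. Other steps used Python 3.11.15, numpy 2.4.6, pandas 2.3.3 and matplotlib 3.10.9. Motifs were searched in RefSeq promoter windows (GRCm38.p6).

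The members and the gene lists were chosen with earlier results of these data known. Named were the members, the receptors and ligand enzymes, up to 4 genes per list with the largest ratio, relatives of members, and the 3 closest profiles of members ranging over more than 1 log2 unit. Of these, 1 gene is not reported here. Per1, Per2, Arntl, Hlf, Dbp, Tef, Cd163, Slc30a1 and the genes sharing the array order of Zbtb16 were named after their values were seen. Alternatives were normexp correction (offset 50) with quantile normalization, the deposited table, scaling on the median, stricter and no filters, the mean over probes, leaving out each pair of arrays, and no genotype term.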

Additional observations from a re-analysis of the deposited data

Results flagged for a closer look

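Some members had ratios of HRF to PBS of opposite sign under different genotype labels, with 1 pair of arrays per label, so these differences were not tested. The log2 ratio of Mt2 in WT was 2.86 above that of the pair labelled FcRg KO (2.60 against -0.26), and that of the FcRg label differed from that of the FceRIa label by -2.04. The ratio of Tsc22d3 in WT differed from that under the FcRg label by -1.09 (-0.33 against 0.75), and that of Cdkn1a by 1.14 (0.89 against -0.25).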

How the results depend on the processing

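No result changed sign past a threshold under the alternatives run. The count of members at least 2-fold apart after HRF under the FceRIa label was 1 with normexp correction and 1 with the mean over probes, against 2. Hif3a had ratios there of -0.99 and -0.46, the latter with 2 probes that were not well above background on every array. The count between PBS arrays of the FceRIa label and WT was 1 with the deposited value table, against 0. The limma count for the FcRg label against WT, 26 genes, was 43 with normexp correction, 11 with the value table and 16 with no filter, and that for the FceRIa label, 0 genes, was 2 with normexp correction and 25 with scaling on the median. A ratio that became 0, as that of Pdk4 in WT with the deposited table, was counted as no change of sign. Of 270 ratios of single members under alternatives, 255 kept their side of 2-fold without a reversal of sign. Of the others, 9 ratios under 2-fold changed sign, 3 passed 2-fold and 3 no longer did. Among them, Hif3a in WT was -0.93 with the mean over probes, Cdkn1a in WT 1.11 with scaling on the median and Tsc22d3 between PBS arrays of the FcRg label and WT -1.12 with normexp correction. Scaling on the median moved the median of all genes by 0.22 in the WT ratio and by 0.27 between the PBS arrays of the FcRg label and WT. No member passed limma under any alternative, and 5 of 252 member estimates changed sign. The additive limma fit sets HRF against PBS within each genotype label, and leaving out the genotype term changed no call of a member. The labels carry no replicate numbers. The number of arrays limits the precision throughout, and the single array of a group carries any change of tissue or handling with it.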
